A study of Mus musculus with 9 samples.

Results

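The subunit genes of oxidative phosphorylation were examined for peaks of the histone deacetylases Hdac1 and Hdac2 in mouse haemogenic endothelium. They were taken as the protein-coding genes with symbols of the Nduf, Sdh, Uqcr, Cox or Atp5 subunit series (Nduf followed by a, b, c, s or v and a number, Sdha to Sdhd, every symbol that begins with Uqcr or Atp5, and Cox4 to Cox8 followed by a, b or c). This gave 85 of 21887 protein-coding genes on chromosomes 1 to 19, X and Y, namely 40 of complex I, 4 of complex II, 8 of complex III, 16 of complex IV and 17 of complex V. Binding in a list meant that a peak reached, by 1 bp or more, the 1000 bp on either side of one of the annotated ends of the gene. The symbol rule leaves out Cox4i1, Cox4i2, Ndufab1, Cyc1 and the mitochondrially encoded subunits. The Cox pattern also admits muscle and testis isoforms.

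Chromatin immunoprecipitation and sequencing (ChIP-seq) had been done with an Hdac1 antibody from Diagenode and an Hdac2 antibody from abcam in haemogenic endothelium, the endothelial cells from which the first blood cells arise, derived in culture from ES cells. The ES lines were Hd1_loxlox and Hd2lox at passage 25 to 30 and Bry at passage 16 to 19, all C57BL/6 and untreated. The line names point to lox alleles, but the labels state no genotype and no recombinase, so no line was taken as a deletion. Each of the 3 lines gave 1 library per antibody, so an antibody had n = 3 and a line had no replicate of its own. The replicates are different cell lines, so a p-value here reflects only how far these libraries spread, possibly for technical reasons. The test behind it did not pair the antibodies of a line.

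Oxidative phosphorylation makes most of the ATP of a respiring cell. Complexes I and II pass electrons from NADH and succinate to ubiquinone, complex III passes them to cytochrome c, and complex IV passes them to oxygen. Complexes I, III and IV pump protons, and complex V, the ATP synthase, uses the gradient. Most of their subunits are encoded in the nucleus, where many of the promoters are rich in CpG and carry motifs of the factors NRF1, GABP (an ETS protein) and YY1. Hdac1 and Hdac2 are the catalytic subunits of the NuRD, Sin3 and CoREST complexes, and they are found at many active CpG-rich promoters.

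The 6 lists held 5161 to 9279 peaks and gave positions only. Read depth is therefore unknown, and missing peaks can reflect low coverage. The Hdac2 list of Hd1_loxlox stood apart from the others. It held 5161 peaks, but those reached the ends of 594 genes, against 2946 to 7532 genes in the other 5 lists. The main counts that use it are also given without it. Peaks do not measure expression, so the cell type could be checked only as binding. Of 9 marker genes of haemogenic endothelium 7 had an end peak in at least 1 list, against 47.8% of all genes, among them Kdr, Kit, Gfi1 and Tal1 with Hdac1 in at least 2 lines, and Tek and Runx1 had none. Of the markers of other cells, Sox2 of ES cells had both proteins in Hd2lox and Tnnt2 of heart had Hdac2 in Hd1_loxlox, and the other 8 markers of ES, cardiac, smooth muscle and erythroid cells had no end peak, against 52.2% of all genes.

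The promoters below show what the sequence at these genes looked like in 4 members with an Hdac1 peak over the annotated start in all 3 lines (Ndufa11, Ndufv2, Atp5h and Cox5a) and in 2 members of complex IV with no peak in any list (Cox8a and Cox6b1). Each runs from 250 bases before to 50 after an annotated start, is given 5′ to 3′ from RefSeq (GRCm38.p6, the mm10 assembly), and is in lower case. Capitals mark exact matches on either strand to GCGCA and GCGC separated by 1 base (NRF1), AAGATGGC (YY1), CCGGAAG (ETS), GGGCGG (SP) or CCAAT (NFY).
Ndufa11 (chr17:56717512-56717811, plus strand): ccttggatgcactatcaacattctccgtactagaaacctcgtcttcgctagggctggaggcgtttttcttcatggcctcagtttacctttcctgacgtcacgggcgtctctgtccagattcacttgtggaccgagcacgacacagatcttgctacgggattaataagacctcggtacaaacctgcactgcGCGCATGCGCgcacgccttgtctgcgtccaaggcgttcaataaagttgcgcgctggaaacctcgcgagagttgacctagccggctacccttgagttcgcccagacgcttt
Ndufv2 (chr17:66101510-66101809, minus strand): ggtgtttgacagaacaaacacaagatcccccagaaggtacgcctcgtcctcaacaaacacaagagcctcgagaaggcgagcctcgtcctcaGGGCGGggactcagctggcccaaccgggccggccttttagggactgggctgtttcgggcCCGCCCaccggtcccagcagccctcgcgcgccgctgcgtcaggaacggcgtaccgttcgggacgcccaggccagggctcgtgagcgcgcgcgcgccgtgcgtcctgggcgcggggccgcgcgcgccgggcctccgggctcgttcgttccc
Atp5h (chr11:115419870-115420169, minus strand): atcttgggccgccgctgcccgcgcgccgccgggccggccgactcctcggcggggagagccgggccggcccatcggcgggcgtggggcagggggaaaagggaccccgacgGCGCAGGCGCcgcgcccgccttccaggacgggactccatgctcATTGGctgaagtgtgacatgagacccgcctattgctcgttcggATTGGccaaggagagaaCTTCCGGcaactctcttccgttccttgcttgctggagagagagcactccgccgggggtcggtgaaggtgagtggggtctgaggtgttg
Cox5a (chr9:57520982-57521281, plus strand): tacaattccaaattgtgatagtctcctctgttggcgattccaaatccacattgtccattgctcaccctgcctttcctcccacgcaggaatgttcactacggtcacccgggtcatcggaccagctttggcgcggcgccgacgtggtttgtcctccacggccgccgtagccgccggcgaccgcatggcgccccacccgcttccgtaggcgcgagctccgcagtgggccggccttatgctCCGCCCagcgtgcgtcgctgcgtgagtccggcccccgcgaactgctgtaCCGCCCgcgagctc
Cox8a (chr19:7217567-7217866, minus strand): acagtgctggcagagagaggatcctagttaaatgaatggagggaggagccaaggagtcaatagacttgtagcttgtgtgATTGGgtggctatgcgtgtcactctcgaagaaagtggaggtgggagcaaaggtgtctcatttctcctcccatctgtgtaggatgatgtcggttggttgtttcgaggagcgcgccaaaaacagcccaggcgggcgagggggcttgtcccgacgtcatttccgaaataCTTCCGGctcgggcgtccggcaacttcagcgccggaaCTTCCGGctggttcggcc
Cox6b1 (chr7:30626065-30626364, minus strand): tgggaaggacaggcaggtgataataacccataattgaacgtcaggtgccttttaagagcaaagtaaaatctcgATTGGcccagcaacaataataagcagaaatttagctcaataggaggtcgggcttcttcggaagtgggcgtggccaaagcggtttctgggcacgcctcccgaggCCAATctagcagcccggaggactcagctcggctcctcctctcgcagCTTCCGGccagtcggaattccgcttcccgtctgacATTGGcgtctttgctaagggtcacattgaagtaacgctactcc
The Ndufa11 promoter held 1 NRF1 word and the Atp5h promoter held NRF1, ETS and NFY words, with 25 and 32 CpG. The Ndufv2 and Cox5a promoters held SP words alone, with 39 and 35 CpG. Cox8a and Cox6b1, with no peak, held ETS and NFY words and 19 and 17 CpG. Over the members with a promoter sequence, the medians were 19.5 CpG with Hdac1 at an end in at least 2 lines and 17 without. With Hdac1 counted at the start they were 24.5 and 16.5. These matches are letters in a window and do not show that a factor bound.

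The first comparison asked how often the subunit genes carried each protein in each line. Hdac1 peaks lay at 33 of the 85 genes in Hd1_loxlox, 13 in Hd2lox and 31 in Bry. Hdac2 peaks lay at 2, 2 and 31 of them in the same lines. As shares, Hdac1 was at 38.8% of the members in Hd1_loxlox (Wilson 95% interval 29.2 to 49.5%), against 31.7% of all protein-coding genes in that list. In Hd2lox Hdac1 was at 15.3% of the members (9.16 to 24.4%), against 24.3% of all genes. In Bry it was at 36.5% (27.0 to 47.1%), against 31.9%. The member share was thus above that of all genes in 2 Hdac1 lists and below it in the Hd2lox list. Each of these intervals held the share of all genes, so the lists do not set the members apart.

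For Hdac2, 36.5% of the members were bound in Bry (27.0 to 47.1%), against 34.4% of all genes. In Hd2lox the share was 2.35% (0.648 to 8.18%), against 13.5% of all genes, and in Hd1_loxlox it was 2.35%, against 2.71%. At the share of all genes, 11.4 members would have been bound in the Hd2lox Hdac2 list and 20.6 in the Hd2lox Hdac1 list, where 2 and 13 were. The intervals cover counting error only and treat genes as independent, which neighbours that share a peak are not.

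**Figure D1:**
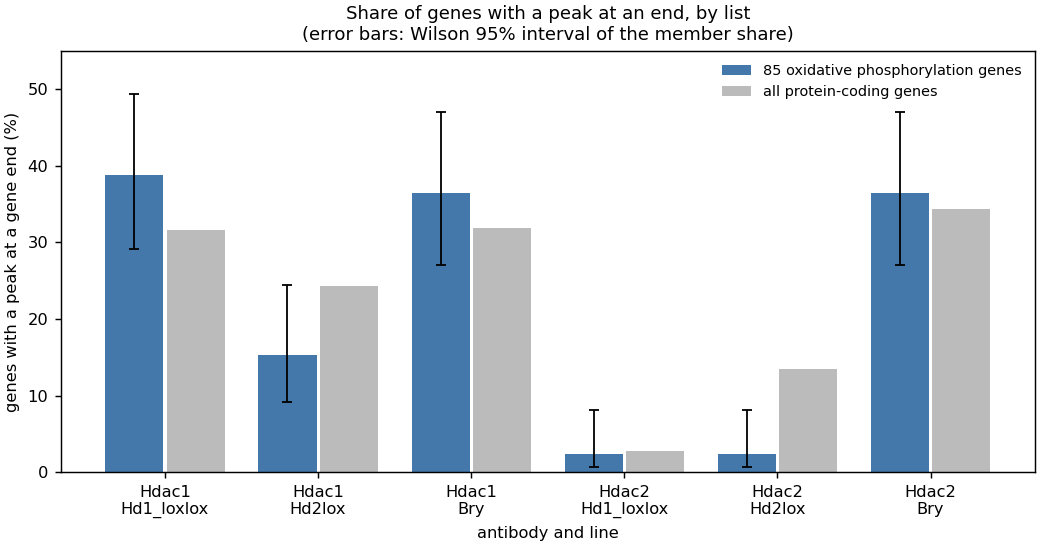
Share of the 85 oxidative phosphorylation genes (blue) and of all protein-coding genes (grey) with a peak at a gene end, in percent, for each antibody and line, with the Wilson 95% interval of the member share as error bars. The member share is above the grey bar for Hdac1 in Hd1_loxlox and Bry and for Hdac2 in Bry, and below it in both Hd2lox lists.

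Over the lines, 25.7 ± 11.0 members were bound by Hdac1 and 11.7 ± 16.7 by Hdac2 (SD, n = 3 each), or 30.2% ± 13.0 and 13.7% ± 19.7 of the members, beside 29.3% ± 4.35 and 16.9% ± 16.1 of all genes. The difference of 14 members was smaller than the spread between the Hdac2 libraries. It was 31 members in Hd1_loxlox, 11 in Hd2lox and 0 in Bry, and 9.17 without the Hdac2 list of Hd1_loxlox. All genes differed in a like way: the share bound by Hdac1 minus that bound by Hdac2 was 36.5 percentage points for the members and 29.0 for all genes in Hd1_loxlox, 12.9 and 10.8 in Hd2lox, and 0 and -2.48 in Bry, with 1 library per antibody and line.

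An Hdac1 peak was present in at least 2 lines at 26 members (30.6%), against 30.2% of all protein-coding genes, and in all 3 lines at 7 members (8.24%), against 14.6% of all genes. An Hdac2 peak was present in at least 2 lines at 4 members (4.71%), against 10.6% of all genes. Without the Hdac2 list of Hd1_loxlox the Hdac2 count was 2 members, against 9.61% of all genes. No member was in all 3 Hdac2 lists, against 0.603% of all genes. The Hdac1 count in at least 2 lines was at the level of all genes, and the counts for all 3 Hdac1 lists and for Hdac2 were below it.

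At least 1 of the 6 lists had a peak at an end of 49 members (57.6%), against 47.8% of all genes. Hdac1 peaks with no Hdac2 peak in any line were found at 18 members (21.2%), against 8.35% of all genes, and the reverse at 5 members (5.88%), against 4.6% of all genes. The 5 were Ndufa3, Ndufa5, Ndufb4, Cox5b and Atp5o, and each had an Hdac2 peak in Bry, Ndufb4 in Hd1_loxlox as well. Without the Hdac2 list of Hd1_loxlox these counts were again 49, 18 and 5 members, against 46.9%, 8.63% and 3.73% of all genes. Hdac1 in Hd1_loxlox and Hdac1 in Bry shared 21 members, which is 63.6% of the 33 of Hd1_loxlox and 67.7% of the 31 of Bry, where all genes shared 80.2% and 79.6%. Within Bry, Hdac1 and Hdac2 shared 22 members, 71.0% of each list, where all genes shared 82.4% of the Hdac1 and 76.4% of the Hdac2 list. Of the 85 members, 14 (16.5%) had Hdac1 in Hd1_loxlox and Bry but not in Hd2lox, against 10.9% of all genes.

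**Figure D2:**
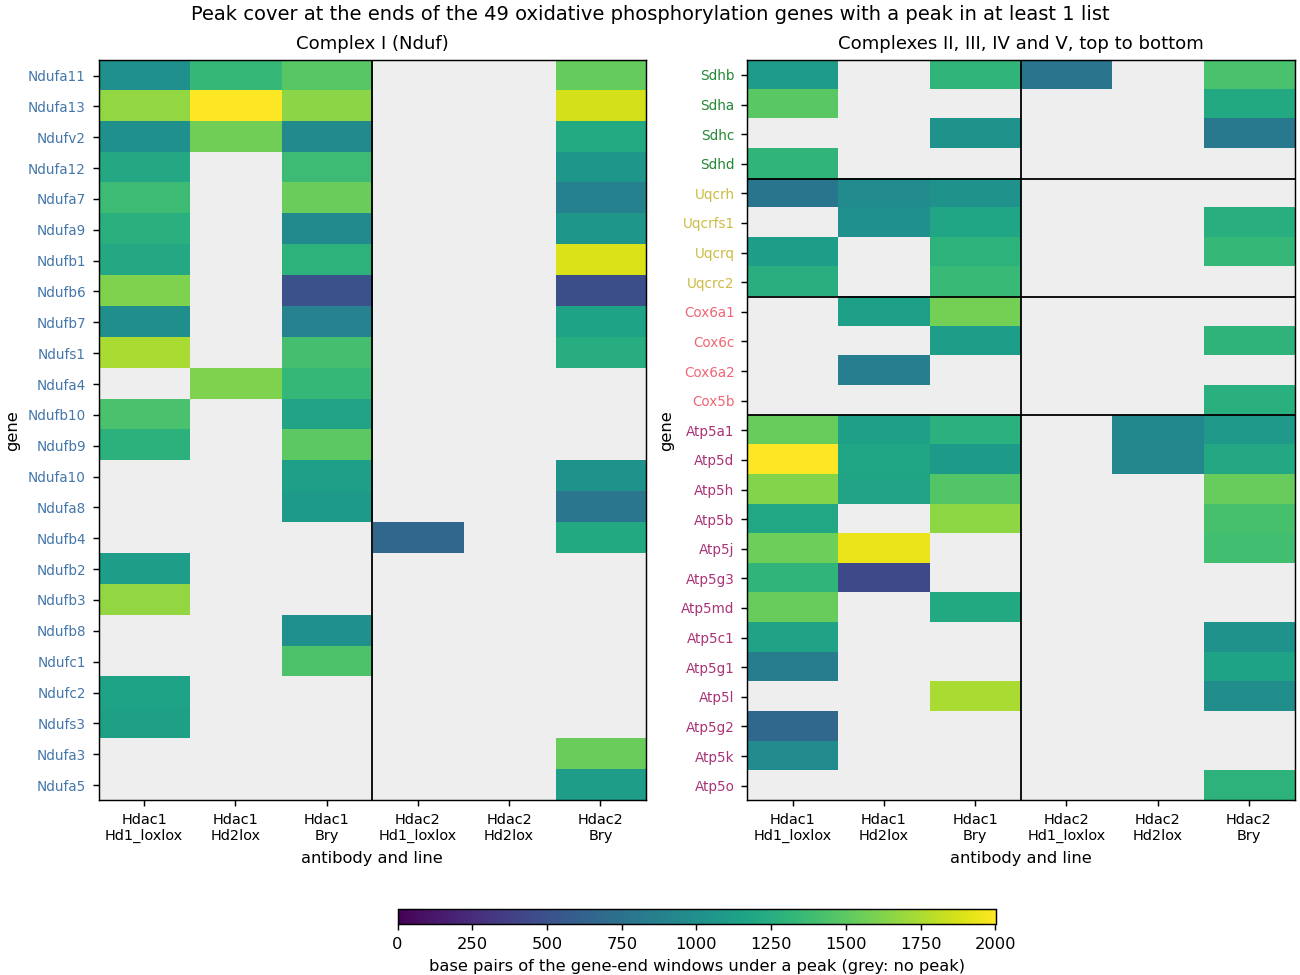
Base pairs of the gene-end windows under a peak for the 49 of 85 genes with an end peak in at least 1 list (rows, coloured by complex) in each antibody and line (columns), with grey where the list has no peak. The Hdac2 lists of Hd1_loxlox and Hd2lox hold 2 genes each, and complex IV has 4 rows.

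The second comparison was between the 5 complexes. Of the complexes with 16 or more genes, complex V had the highest and complex IV the lowest share with Hdac1 in at least 2 lines. The order was not the same in each list: complex I (42.5%) was above complex V (35.3%) for Hdac1 in Bry, and below complex IV for Hdac1 in Hd2lox (4 of 40 and 2 of 16 genes). Without the Hd2lox lists, Hdac1 was in both other lines at 12 genes of complex I, 0 of IV and 5 of V. With all 3 lines, Hdac1 was present in at least 2 lines at 13 of 40 complex I genes (32.5%), 1 of 4 complex II genes, 4 of 8 complex III genes, 1 of 16 complex IV genes (6.25%) and 7 of 17 complex V genes (41.2%), beside 30.2% of all genes. Hdac2 was present in at least 2 lines at 1 gene of complex I, 1 of complex II and 2 of complex V, and at none of complexes III and IV. Without the Hdac2 list of Hd1_loxlox the Hdac2 counts were 0 for complex I, 0 for complex II and 2 for complex V. Members of a complex are not replicates, and no test was made between complexes.

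Complex I takes electrons from NADH. It had Hdac1 at 16 genes in Hd1_loxlox, 4 in Hd2lox and 17 in Bry, and Hdac2 at 1, 0 and 15. Its 40 genes include 7 for the catalytic core conserved from bacteria, of which 2 (Ndufs1 and Ndufv2) had Hdac1 in at least 2 lines, and 33 other genes, of which 11 did. Ndufs1 and Ndufv2 encode iron-sulphur subunits of the arm that oxidises NADH. Ndufs1 had 1747, 0 and 1407 bp of its end windows under Hdac1 peaks in Hd1_loxlox, Hd2lox and Bry, and 0, 0 and 1249 bp under Hdac2 peaks, so neither protein had an end peak in Hd2lox, where an Hdac2 peak lay inside the gene. Ndufs3, another core gene, had 1139 bp under an Hdac1 peak in Hd1_loxlox alone. Among the core genes without an end peak in any list were Ndufs7, Ndufs8 and Ndufv1.

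The complex I genes with Hdac1 in all 3 lines were Ndufa11 and Ndufa13, which encode accessory subunits, and Ndufv2. Ndufa13 (chromosome 8, 69894163-69902558) had 1674 bp of its end windows under Hdac1 peaks in Hd1_loxlox, 2001 bp in Hd2lox and 1654 bp in Bry, and 0, 0 and 1875 bp under Hdac2 peaks. Hdac1 peaks were present in every line and Hdac2 peaks in Bry alone, at a cover inside the Hdac1 range, so the antibodies overlapped. A cover of 2001 bp fills the whole window of 1 end. The peaks also reached the neighbouring gene Tssk6, in the sense used for the members, within 1000 bp of its end. In Hd1_loxlox and, for both proteins, in Bry they were a pair, centred 366 to 471 bp inside the gene and -1148 to -901 bp from its start, where Hd2lox had 1 wide peak.

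Ndufa11 (chromosome 17, 56717762-56724248) had 1005 bp under Hdac1 peaks in Hd1_loxlox, 1330 bp in Hd2lox and 1478 bp in Bry, and 0, 0 and 1528 bp under Hdac2 peaks. All 4 peaks covered the annotated start in the promoter shown above. They also reached Vmac. Ndufv2 (chromosome 17, 66078795-66101559) had 1001, 1569 and 949 bp under Hdac1 peaks in Hd1_loxlox, Hd2lox and Bry, and 0, 0 and 1220 bp under Hdac2 peaks. Each of these 4 lists had a peak over the start. Hd1_loxlox and Hd2lox had a further Hdac1 peak at the far end of the gene, near Ankrd12.

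Of the other accessory genes, Ndufa7, Ndufa9, Ndufa12, Ndufb1, Ndufb6 and Ndufb7 shared the pattern of end peaks of Ndufs1, with Hdac1 in Hd1_loxlox and Bry, Hdac2 in Bry and no end peak in Hd2lox. Ndufa9, like Ndufs1, had an Hdac2 peak inside the gene in Hd2lox. Their cover by Hdac1 was 997 to 1614 bp in Hd1_loxlox and 494 to 1547 bp in Bry, and by Hdac2 in Bry 479 to 1894 bp. At Ndufb6 the Bry peaks of both proteins lay only at the far end, near Smim27 and Topors. In Hd1_loxlox an Hdac1 peak lay there and another over the start. Ndufb9 and Ndufb10 had Hdac1 in Hd1_loxlox and Bry and no Hdac2. Ndufa4 had Hdac1 in Hd2lox (1617 bp) and Bry (1336 bp). The remaining bound genes were Ndufa3 and Ndufa5 with Hdac2 in Bry, Ndufa8 and Ndufa10 with both proteins in Bry, Ndufb8 and Ndufc1 with Hdac1 in Bry, and Ndufb2, Ndufb3 and Ndufc2 with Hdac1 in Hd1_loxlox. At Ndufa8 the proteins were not at the same place. The Hdac1 peak covered the start, and the Hdac2 peak lay at the far end, 13390 bp from the start.

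Ndufb4 (chromosome 16, 37647602-37654368), an accessory subunit gene, was the only member with Hdac2 in at least 2 lines and Hdac1 in none. Its cover by Hdac2 was 664 bp in Hd1_loxlox, 0 bp in Hd2lox and 1215 bp in Bry. The 2 peaks were not at the same place. The Bry peak lay over the start, with its centre 182 bp inside the gene, and the Hd1_loxlox peak lay 7227 bp from the start, beyond the far end.

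Complex II oxidises succinate and is also an enzyme of the citric acid cycle. Each of its 4 genes had an end peak in at least 1 list. Hdac1 was at Sdha, which encodes the flavoprotein, and Sdhd, a membrane anchor, in Hd1_loxlox, at Sdhc, the other anchor, in Bry, and at Sdhb, the iron-sulphur subunit, in both lines. None of the 4 had a peak in either Hd2lox list. Sdha had 1488 bp under its Hdac1 peak in Hd1_loxlox and 1214 bp under an Hdac2 peak in Bry. Sdhc had 1028 bp under its Hdac1 peak and 807 bp under an Hdac2 peak, both in Bry, and Sdhd had 1313 bp under its Hdac1 peak and no Hdac2. Sdhb (chromosome 4, 140961271-140979198) had 1104, 0 and 1309 bp under Hdac1 peaks in Hd1_loxlox, Hd2lox and Bry, and 773, 0 and 1425 bp under Hdac2 peaks. The Hd1_loxlox Hdac2 peak lay past the far end of the gene, 18633 bp from the start, and that list had another peak inside the gene, while the other 3 lists with an end peak had it over the start. Both members in the Hd1_loxlox Hdac2 list, Sdhb and Ndufb4, were thus bound at the far end there and not at the start.

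Complex III carries electrons from ubiquinol to cytochrome c. Hdac1 was at Uqcrc2, a core subunit, and Uqcrq, a small subunit, in Hd1_loxlox and Bry, at Uqcrfs1, the Rieske iron-sulphur protein, in Hd2lox and Bry, and at Uqcrh, the hinge protein, in all 3 lines. Uqcrc2 had 1259 bp under its Hdac1 peak in Hd1_loxlox and 1353 bp in Bry, with no Hdac2. Uqcrq had 1121 and 1291 bp in the same lines, and 1329 bp under an Hdac2 peak in Bry. Uqcrfs1 had 1005 bp under Hdac1 peaks in Hd2lox and 1188 bp in Bry, and 1264 bp under an Hdac2 peak in Bry. Uqcrb, Uqcrc1, Uqcr10 and Uqcr11 had no end peak. Uqcrh (chromosome 4, 116066965-116075070) had 778 bp under Hdac1 peaks in Hd1_loxlox, 965 bp in Hd2lox and 1018 bp in Bry, and 0 bp under Hdac2 peaks in each line. Every Hdac1 library was above every Hdac2 library, with a mean of 920.3 ± 126.1 bp and 0 bp (SD over 3 libraries each). The exact permutation test, two-sided, gave p = 0.1, the smallest that 3 against 3 allows, and a Benjamini-Hochberg adjusted p of 0.935. The 3 Hdac1 peaks were centred at -976, -913 and -945 bp, ahead of the start of Uqcrh, and reached the neighbouring gene Lrrc41. Only the Bry peak covered the start itself.

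Complex IV reduces oxygen. Of its 16 genes, 12 had no end peak in any list, against 52.2% of all genes. Hdac1 was at 0 genes in Hd1_loxlox, 2 in Hd2lox and 2 in Bry, and Hdac2 at 0, 0 and 2. Cox6a1 had 1127 bp of its end windows under an Hdac1 peak in Hd2lox and 1579 bp in Bry. Cox6c had 1124 bp under an Hdac1 peak and 1304 bp under an Hdac2 peak, both in Bry. Cox5b had 1270 bp under an Hdac2 peak in Bry, and Cox6a2 had 852 bp under an Hdac1 peak in Hd2lox. Cox6a2 encodes the heart and skeletal muscle isoform of the subunit that Cox6a1 encodes elsewhere. Of the isoform genes of muscle, testis or low-oxygen states, a list with Ndufa4l2, Cox4i2, Cox6a2, Cox6b2, Cox7a1, Cox7b2, Cox8b and Cox8c, 1 of 8 had an end peak, against 47.8% of all genes. The other unbound complex IV genes encode widely expressed subunits, among them Cox6b1, Cox7c and Cox8a.

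A pair of features of the rule bears on the count for complex IV. Cox5a (chromosome 9, 57517328-57532427), which encodes a subunit on the matrix side, counted as unbound because its annotated outer end lies far from the start used in the promoter table, at 57521232. The Hdac1 peaks at 57520583-57522033 in Hd1_loxlox, 57520508-57522029 in Hd2lox and 57520666-57522066 in Bry, and the Hdac2 peak at 57520781-57521910 in Bry, all covered that start. Cox4i1, which encodes the largest nuclear subunit and is not matched by the rule, carried Hdac1 in every line and Hdac2 in Bry. Cox5a and Cox4i1 were singled out after their values were seen. Ndufa4, counted here with complex I by its symbol, encodes a protein now placed in complex IV. With it and Ndufa4l2 moved there, complex IV had Hdac1 in at least 2 lines at 2 genes.

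Complex V is the ATP synthase. It had Hdac1 at 11 of 17 genes in Hd1_loxlox, 5 in Hd2lox and 6 in Bry, and Hdac2 at 0, 2 and 9. Of the genes of the catalytic head, Atp5a1 (alpha) had Hdac1 in all 3 lines and Atp5b (beta) in Hd1_loxlox and Bry. Of the central stalk, Atp5d (delta) had Hdac1 in all 3 lines, Atp5c1 (gamma) in Hd1_loxlox, and Atp5e (epsilon) had no peak. The c-ring genes Atp5g1 and Atp5g2 had Hdac1 in Hd1_loxlox, and Atp5g3 in Hd1_loxlox and Hd2lox. Of the peripheral stalk, Atp5h had Hdac1 in all 3 lines, Atp5j in Hd1_loxlox and Hd2lox, Atp5o had Hdac2 in Bry, and Atp5pb had no peak. Atp5b had 1202, 0 and 1663 bp of its end windows under Hdac1 peaks in Hd1_loxlox, Hd2lox and Bry, and 0, 0 and 1415 bp under Hdac2 peaks. Atp5j had 1562, 1945 and 0 bp under Hdac1 peaks and 0, 0 and 1392 bp under Hdac2 peaks, so that in Bry it had Hdac2 without Hdac1. The small membrane subunit genes Atp5k, Atp5l and Atp5md had Hdac1 in Hd1_loxlox, in Bry, and in both of these lines in that order.

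Atp5a1 (chromosome 18, 77773768-77782869) had 1534 bp under Hdac1 peaks in Hd1_loxlox, 1131 bp in Hd2lox and 1279 bp in Bry, and 0, 936 and 1075 bp under Hdac2 peaks. The means were 1315 ± 203.9 bp and 670.3 ± 584.7 bp (SD over 3 libraries each), with p = 0.1 by the same exact permutation test and an adjusted p of 0.935. The groups did not overlap, although the lowest Hdac1 and the highest Hdac2 value were close. These peaks lay at the end of the gene with the lower coordinate and reached Haus1.

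Atp5h (chromosome 11, 115415691-115419919) had 1627, 1167 and 1466 bp under Hdac1 peaks in Hd1_loxlox, Hd2lox and Bry, and 0, 0 and 1535 bp under Hdac2 peaks. All 4 peaks covered the start shown above and also reached Kctd2. Atp5d (chromosome 10, 80138698-80145828) had 2001, 1181 and 1087 bp under Hdac1 peaks and 0, 928 and 1207 bp under Hdac2 peaks in the same lines. Those peaks were centred at -3821 to -3058 bp from the start of the promoter table, at the outer end of the annotation, and reached Cbarp. Bry had in addition an Hdac1 and an Hdac2 peak over that start. Atp5a1 and Atp5d were the only members with Hdac1 in 3 lines and Hdac2 in 2, and the only members in the Hdac2 list of Hd2lox.

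**Figure D3:**
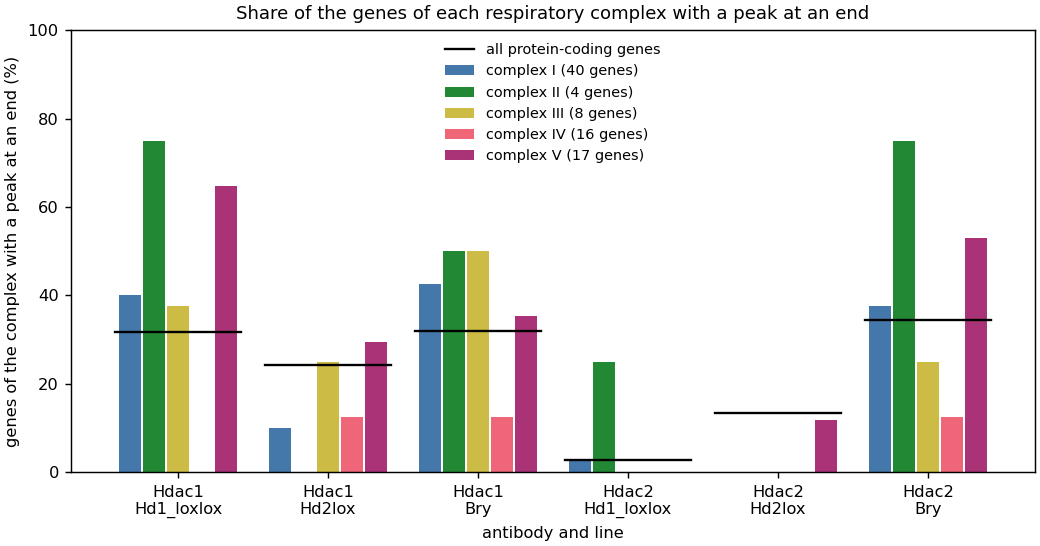
Share of the genes of each complex with a peak at an end, in percent, for each antibody and line, with the share of all protein-coding genes in that list as a black line. Complex IV (16 genes) is at or below 12.5% in every list, and complex V (17 genes) reaches 64.7% for Hdac1 in Hd1_loxlox.

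The third comparison was between antibodies gene by gene. The cover was compared for every protein-coding gene, and groups that did not overlap, with Hdac1 above Hdac2, were found at 2 of 85 members (2.35%, Uqcrh and Atp5a1), against 4.23% of all genes, and without the Hdac2 list of Hd1_loxlox at 2, against 4.25%. No member had every Hdac2 library above every Hdac1 library, against 0.00457% of all genes. The exact permutation test cannot go below p = 0.1, no gene reached an adjusted p of 0.05 or an unadjusted p of 0.05, and the smallest Benjamini-Hochberg adjusted p was 0.935 over 10454 genes with cover. Paired by line, Hdac1 cover was above Hdac2 cover in all 3 lines at 2 members, against 7.75% of all genes, and the reverse held at 0 members, against 0.00457% of all genes.

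The position of the member peaks was taken relative to the start. The promoter table gave a start for 70 of the 85 genes, and these had 101 end peaks over the 6 lists. Of those, 85 reached within 1000 bp of a start and 76 covered the start base (84.2% and 75.2%), against 89.6% and 83.5% of the end peaks of all genes with a start. Peaks at gene ends are chosen to be near one, so most being near a start is no finding. The centres of the 85 had a median of 65 bp into the gene, with quartiles at -132 and 213 bp. The 16 others lay at the far end of the gene or beside an outer end away from the start, and they included all 3 Hdac2 peaks of Hd1_loxlox and Hd2lox that could be placed. With windows at the start alone, 20 of 70 members had Hdac1 in at least 2 lines (28.6%), against 31.3% of all genes with a start. No member had Hdac2 at the start in at least 2 lines, against 10.7% of all genes.

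**Figure D4:**
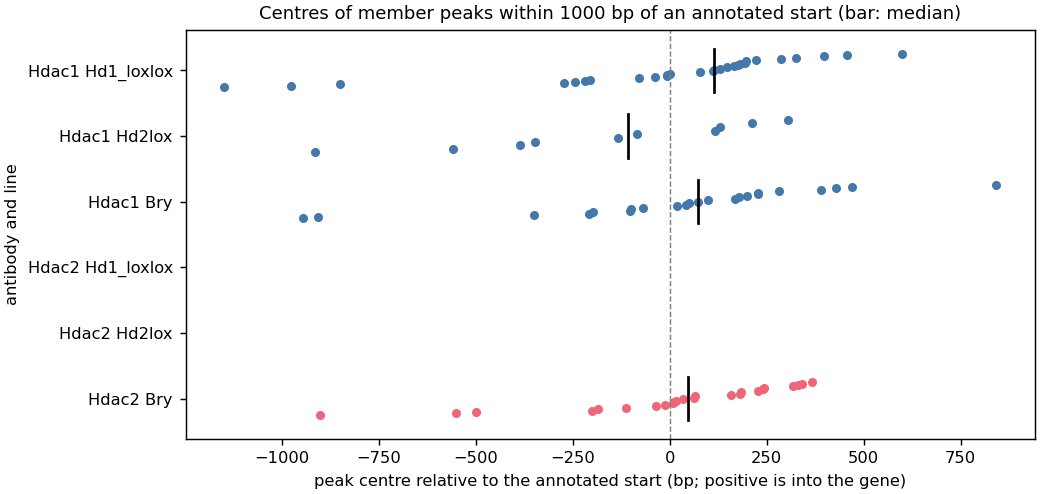
Distance in bp of the centre of each member peak from the annotated start, for peaks that reach within 1000 bp of a start, with Hdac1 in blue and Hdac2 in red and a bar at the median of each list. The Hdac1 peaks of Hd1_loxlox and Bry and the Hdac2 peaks of Bry centre just inside the gene, at medians of 113.5, 74 and 48 bp.

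By median, the member peaks were narrower than their whole lists in Hd1_loxlox and Bry and wider in Hd2lox. For Hdac1 the median member peak stood at width percentile 30.0 in Hd1_loxlox, 63.5 in Hd2lox and 43.1 in Bry. The median width was 1267 bp for Hdac1 in Hd1_loxlox, where the whole list had 1475 bp. It was 1617 bp in Hd2lox, where the list had 1445 bp, and 1309 bp in Bry, where the list had 1375 bp. For Hdac2 in Bry it was 1232 bp, where the list had 1310 bp. The 2 member peaks each of the Hdac2 lists of Hd1_loxlox and Hd2lox had medians of 810.5 and 932 bp, where the lists had 1099 and 822 bp.

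Many of these genes sit close to another gene, and a peak there cannot be assigned to either. An end of another protein-coding gene lay within the windows of 48 members (56.5%), against 24.8% of all genes. Hdac1 was present in at least 2 lines at 20 of those 48 members (41.7%) and at 6 of the 37 members without such a neighbour (16.2%). Among all genes the shares were 48.0% with and 24.3% without a neighbour. The member share was thus below that of all genes both with and without a neighbour, although the shares without this split were alike. This difference was not tested. Of the 121 end peaks at members, 70 also reached another coding gene. At Atp5j the Hdac1 peaks of Hd1_loxlox and Hd2lox and the Hdac2 peak of Bry also reached Gabpa, which encodes the DNA-binding subunit of GABP, itself a regulator of respiratory genes. The peaks at Ndufa7 also reached Rps28, and 3 of the 4 at Ndufb10 reached Rps2, both genes of cytosolic ribosomal proteins.

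The sequence of the promoters was then set beside binding, as a description. The 75 promoters of the 70 members had a median of 19 CpG each, against 13 in all protein-coding promoters. The NRF1 word was in 24.0% of them, against 6.38% of all promoters, the YY1 word AAGATGGC in 13.3%, against 3.05%, and the ETS word CCGGAAG in 22.7%, against 11.6%. The SP word GGGCGG was in 38.7%, against 46.2%, and CCAAT in 41.3%, against 38.2%. Members with Hdac1 in at least 2 lines had a median of 19.5 CpG and members with none had 17, where all genes had 25 and 5. The ETS word was in 33.3% of the 24 promoters of members with Hdac1 in at least 2 lines and in 14.3% of the 35 of members without Hdac1. In the same order the NRF1 word was in 16.7% and 22.9%, and the YY1 word in 8.33% and 17.1%. Over all genes, promoters of genes with Hdac1 in at least 2 lines and of genes without Hdac1 held the ETS word in 18.3% and 6.69%, the NRF1 word in 10.8% and 3.33%, and the YY1 word in 4.75% and 1.96%. The NRF1 and YY1 words were thus less frequent at members with Hdac1 in at least 2 lines than at members without Hdac1. Over all genes they were more frequent in the bound group. The 16 promoters of members with Hdac1 in 1 line held the NRF1 word in 37.5% and the YY1 word in 12.5%. The NRF1 contrast therefore does not extend to members with Hdac1 in 1 line. With the separating base fixed as T it ran the other way, at 8.33% with Hdac1 in at least 2 lines and 2.86% without. These contrasts rest on a few promoters and were not tested. The medians of CpG content for bound and unbound genes thus lay closer together among the members than among all genes.

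Last, the members were set beside related genes, where 30.2% of all genes had Hdac1 and 10.6% had Hdac2 in at least 2 lines. The 49 assembly factor genes, which build the complexes without staying in them, had Hdac1 in at least 2 lines in 28 cases (57.1%) and Hdac2 in none. Among them were all 6 complex III factors (Bcs1l, Lyrm7, Ttc19, Uqcc1, Uqcc2 and Uqcc3) and 10 of 20 complex IV factors, including Cox15 for haem and Sco1 for copper. Of 17 regulators of mitochondrial gene expression 10 had Hdac1 in at least 2 lines and 2 (Polrmt, the mitochondrial RNA polymerase, and Yy1) had Hdac2. Nrf1, Esrra, Ppargc1a, Ppargc1b, Pprc1, Lrpprc and Yy1 had Hdac1 in all 3 lines. Of 19 genes of the citric acid cycle and pyruvate entry 8 had Hdac1 and 2 (Sucla2 and Suclg2) had Hdac2 in at least 2 lines. Of 10 genes outside the rule, for other subunits and associated proteins such as Atpif1 and Micos10, 7 had Hdac1 in at least 2 lines. Cyc1, which encodes cytochrome c1 of complex III, Cox4i1 and Atpif1, the inhibitor of the ATP synthase, had it in all 3.

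Of these families the members had the lowest share with Hdac1 in at least 2 lines. Hdac1 was present in at least 2 lines at 30.6% of the members, 43.6% of 78 mitochondrial ribosomal protein genes, 57.6% of 85 cytosolic ribosomal protein genes and 49.0% of 49 proteasome genes, where all genes gave 30.2%. In the Hd2lox Hdac1 list the shares were 15.3%, 10.3%, 17.6% and 12.2%, all below the 24.3% of all genes. In the Hdac2 list of Hd2lox they were 2.35%, 1.28%, 7.06% and 8.16%, against 13.5%. All 4 families were thus below all genes in both Hd2lox lists. No test was made between the families.

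**Figure D5:**
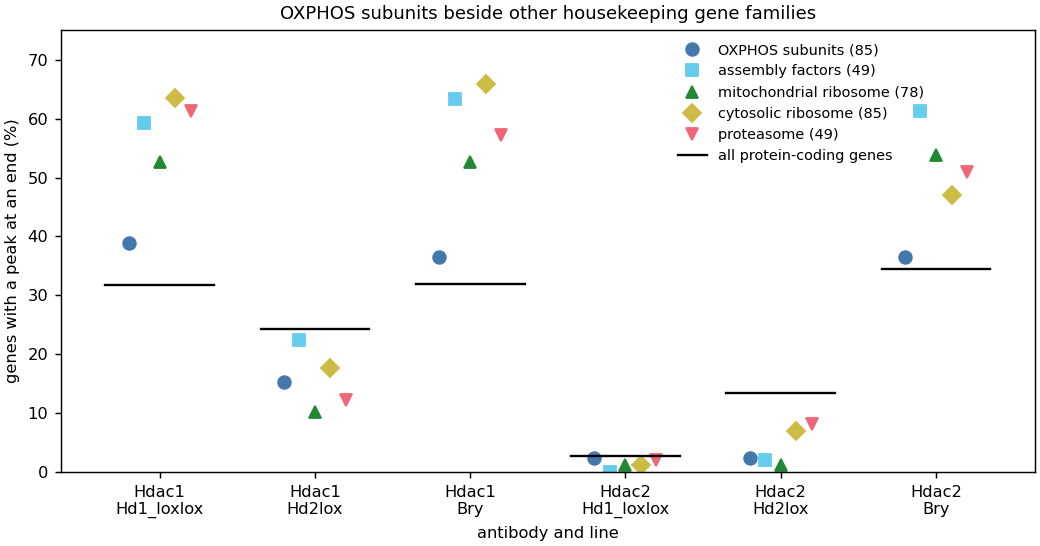
Share of the genes of 5 families with a peak at an end, in percent, for each antibody and line, with the share of all protein-coding genes as a black line. The oxidative phosphorylation subunits (circles) are the lowest family in the Hdac1 lists of Hd1_loxlox and Bry and in the Hdac2 list of Bry, and every family is below the line in both Hd2lox lists.

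The 36 members without an end peak in any list (42.4%, against 52.2% of all genes) were 16 of complex I (among them Ndufa1, Ndufa2, Ndufa4l2, Ndufa6, Ndufb4b, Ndufb4c, Ndufb5, Ndufb11, Ndufs4, Ndufs5, Ndufs6, Ndufs7, Ndufs8, Ndufv1 and Ndufv3), the 4 of complex III named above, 12 of complex IV (Cox5a, Cox6b1, Cox6b2, Cox7a1, Cox7a2, Cox7a2l, Cox7b, Cox7b2, Cox7c, Cox8a, Cox8b and Cox8c) and 4 of complex V (Atp5e, Atp5j2, Atp5mpl and Atp5pb).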

How the data were processed

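ChIP-seq peaks of Hdac1 and Hdac2 were analysed in 3 lines of ES-derived haemogenic endothelium. Per the submitters' processing notes the tools were bcl2fastq, Bowtie2 2.2.9, SAMtools 1.3.1 and MACS2 2.1.1.20160309 and the build was mm10. How peaks were called, at which threshold and against which control is not stated in the labels. The authors deposited 1 list of chromosome, start and end per ChIP library, with no score. The 3 input samples were not used here. Positions are printed 1-based.

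Gene positions were those of RefSeq for GRCm38.p6, which gives outer ends, and starts and strands from a RefSeq promoter table, which matched 70 of 85 members. Python 3.11.15 with pandas 2.3.3, SciPy 1.17.1 and matplotlib 3.10.9 was used, and the overlap code was tested on simulated data. The planned tests were kept: counts beside the share of all genes, and an exact two-sided permutation test per gene of covered base pairs, with Benjamini-Hochberg adjustment over genes with cover at 0.05. The permutation test did not pair the antibodies by line. The labels name the same cell line for both, so pairing by line was used as an alternative. Members and lists were chosen with earlier results of these data known. The plan gave values in every library to genes with Hdac1 in 3 lines and Hdac2 in 2. It also did so for genes in the Hd1_loxlox Hdac2 list and genes whose antibodies did not overlap. The last groups were genes with the highest lowest Hdac1 cover (7 were above 0) and genes with Hdac2 in 2 lines and Hdac1 in fewer. Other genes were named after their values were seen, among them Ndufs1, Atp5b and Atp5j with values in every library. Of the members, 1 is counted but not reported by name here. Alternatives were windows of 500 and 2000 bp, peak midpoints, start windows, stricter lists, members without neighbours, libraries left out and pairing by line, and, chosen after seeing the data, peaks anywhere over the gene.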

Additional observations from a re-analysis of the deposited data

Results flagged for a closer look

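The difference between the antibodies had opposite signs in different lines for complexes II and V. Bound complex V genes, Hdac1 minus Hdac2, numbered 11 in Hd1_loxlox, 3 in Hd2lox and -3 in Bry. For complex II they numbered 2, 0 and -1. Each line has 1 library per antibody, so this difference between lines was not tested. The number of genes bound by Hdac2 in the whole list ran the opposite way over these lines, at 594, 2946 and 7532 genes, and its part in the result was not tested.

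Signal outside the outer gene ends was present for 2 members counted as unbound. Cox5a had a peak at its annotated start in 4 lists (Hdac1 in Hd1_loxlox, Hd2lox and Bry, and Hdac2 in Bry), and Cox7a2 in 1 list (Hdac2 in Bry).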

How the results depend on the processing

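Of 215 values recomputed, 147 stayed within 1.5 times the main count or, for the mean difference, within 1 SD, and no difference changed sign. Windows of 500 bp and peak midpoints moved none. With 2000 bp the Hd2lox Hdac2 list held 5 members. With peaks anywhere over the gene, an alternative chosen after seeing the data, it held 7, Hdac2 was at 3 complex I genes and Hdac1 at 2 complex IV genes in at least 2 lines. Moving Ndufa4 and Ndufa4l2 gave complex IV 2 genes with Hdac1. With start windows no member was in the Hdac2 lists of Hd1_loxlox or Hd2lox and Hdac2 in at least 2 lines fell to 0 members, 0 of them in complexes I, II and V, while Hdac1 was at 2 genes of complex III and 2 of complex IV. With the widest 5161 peaks of each list, Hdac1 was at 18 members in Hd1_loxlox and 19 in Bry, and Hdac2 at 14 in Bry. In at least 2 lines Hdac1 was then at 16 members (against 20.8% of all genes), 8 of complex I, 0 of II, 1 of III and 0 of IV, and Hdac2 at 2 members, 0 of complex I and 1 of V. Without the narrowest 25% of peaks the Hd1_loxlox lists held 20 members for Hdac1 and 1 for Hdac2, Hdac1 in at least 2 lines was at 0 genes of complex II, 2 of III and 0 of IV, and Hdac2 at 0 of complex I. Among the 37 members without a coding neighbour, Hdac1 was at 9 in Hd1_loxlox, 3 in Hd2lox and 9 in Bry, and Hdac2 at 0 in Hd2lox and 10 in Bry. There Hdac1 in at least 2 lines was at 6 members (2 of complex I, 1 of III and 1 of V), Hdac2 at 2 (0 of complex V), and groups that did not overlap at 0. Fewer members were tested in that setting, and for the other changes the cause was not tested.

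Leaving out a line requires both remaining lists, so counts fall by construction. Hdac1 was then at 9 members without Bry (against 17.2% of all genes), 10 without Hd1_loxlox (16.6%) and 21 without Hd2lox (25.4%). Hdac2 was at 0 members without Bry (against 0.731% of all genes), 2 without Hd1_loxlox (9.61%) and 2 without Hd2lox (1.44%). For Hdac1 the ranges were 3 to 12 genes of complex I, 0 to 1 of II, 1 to 3 of III, 0 to 1 of IV and 3 to 5 of V. For Hdac2 they were 0 to 1 of complexes I and II and 0 to 2 of V. Members whose groups did not overlap numbered 2 to 10 (9 without Bry, 4 without Hd1_loxlox and 10 without Hd2lox), where fewer libraries separate more easily. The share of all genes that did so was not computed with a line left out. These counts therefore cannot be read as particular to the members. The mean difference was 21 members without Bry, 5.5 without Hd1_loxlox and 15.5 without Hd2lox. The replicate block by line gave 2 genes and a difference of 14 members, and changed no call.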
